A study of Mus musculus with 2 samples.

Results

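Annexins, S100 proteins and galectins are small families of calcium- or sugar-binding proteins, and 9 of their genes (Anxa1, Anxa2, Anxa5, S100a4, S100a6, S100a10, S100a11, Lgals1 and Lgals3) are described here out of the 27998 genes listed in both matrices. They were taken by gene symbol, and their levels, the shares of cells that carried them and their co-variation are given by library and by the state of the T gene. They were selected on levels already seen in an earlier analysis of these libraries, so every value below is a description and none is a test. AB2.2, an established mouse embryonic stem cell line, was differentiated toward mesendoderm, the shared precursor of mesoderm and endoderm, and profiled at day 4 by droplet single-cell RNA sequencing (10x Genomics) in 2 libraries. PHD2-KO was 1 library of cells in which Egln1, the gene of the oxygen-sensing prolyl hydroxylase PHD2, had been knocked out, and WT was 1 library of wild type cells of the same line at the same day. Both cultures were trypsinized to single cells. The sources used here do not give the altered part of Egln1 or the number of clones, and with 1 library per group no spread between cultures could be measured.

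Annexins bind acidic phospholipids of membranes when calcium is present, and most S100 proteins are calcium-binding dimers that dock onto annexins and other partners. S100a10 pairs with Anxa2 to link membranes to the submembranous cytoskeleton, S100a11 pairs with Anxa1, and S100a6 binds Anxa2, Anxa11 and the adaptor Cacybp. Galectins are lectins without a signal peptide that bind beta-galactosides on glycoproteins after they leave the cell, and Lgals1 and Lgals3 are also found in the cytosol and nucleus. All of these genes are known from epithelial and mesenchymal cells, and T (Brachyury) is the transcription factor that marks the primitive streak, the embryonic site where mesendoderm forms.

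The PHD2-KO library held 7713 barcodes and 173470962 unique molecular identifiers (UMIs, counts of captured transcripts), and the WT library held 9651 barcodes and 226179474 UMIs. After limits on genes and mitochondrial UMIs and removal of likely doublets, 6927 PHD2-KO cells with a median of 20999 UMIs and 8515 WT cells with a median of 20444 UMIs were kept. The libraries shared 22 barcodes, 15 of them among kept cells. Egln1 itself was at 13.7 CPM (UMIs of a gene scaled to the library's total) in PHD2-KO cells and 18.2 CPM in WT cells, which checks nothing about the knockout where the altered part is unknown. T was at 318 CPM in PHD2-KO cells and 5.81 CPM in WT cells.

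Of the 9 genes, 5 lie on chromosome 3 of GRCm38 (GENCODE M21 annotation). S100a4 (chr3:90603771-90606045) and S100a6 (chr3:90612882-90624181) are neighbours on the plus strand, as are S100a11 (chr3:93520488-93526287) and S100a10 (chr3:93555080-93564643), and Anxa5 (chr3:36448923-36475894) stands apart on the minus strand. The others are Anxa1 (chr19:20373428-20390944, minus strand), Anxa2 (chr9:69453620-69491795, plus strand), Lgals1 (chr15:78926725-78930465, plus strand) and Lgals3 (chr14:47367751-47386160, plus strand). All are protein-coding. None lies on chromosome 8. Anxa1 and Anxa2 overlap genes on the opposite strand (1500015L24Rik and Gm16144), and S100a4 overlaps Gm42674 on its own strand. The sources used here do not say whether the counting used strand, so it is not known whether reads of the opposite-strand overlaps were told apart. Strand cannot separate reads of S100a4 from those of Gm42674. The median log2 ratio of PHD2-KO over WT was 0.18 for the 411 measured genes of chromosome 3 and 0.16 for all measured genes.

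The RefSeq promoter table of GRCm38.p6 held entries for 7 of the 9 genes, and S100a10 and Lgals1 had none. The 250 bases before the start are shown for Anxa2 and S100a11, which co-varied with S100a6 across cells, and for Anxa5 and Lgals3, which had the highest ratios between the libraries. The start is that of the promoter table and differs from the GENCODE start given above. The Lgals3 window lies wholly inside the GENCODE gene, and those of Anxa2, S100a11 and Anxa5 reach past the GENCODE start. Each is printed 5′ to 3′ on the strand of its gene, and capitals mark matches to 3 motifs on either strand: TGANTCA (AP-1), and ACGTG and GCGTG (cores bound by hypoxia-inducible factors). The ACGTG and GCGTG letters of the opposite strand read CACGT and CACGC.
Anxa2 (chr9:69453433-69453682, plus strand): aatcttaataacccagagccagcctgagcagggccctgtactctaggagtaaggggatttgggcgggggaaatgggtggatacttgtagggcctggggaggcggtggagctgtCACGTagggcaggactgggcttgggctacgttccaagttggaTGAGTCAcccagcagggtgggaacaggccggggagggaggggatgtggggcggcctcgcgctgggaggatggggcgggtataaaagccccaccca
S100a11 (chr3:93520246-93520495, plus strand): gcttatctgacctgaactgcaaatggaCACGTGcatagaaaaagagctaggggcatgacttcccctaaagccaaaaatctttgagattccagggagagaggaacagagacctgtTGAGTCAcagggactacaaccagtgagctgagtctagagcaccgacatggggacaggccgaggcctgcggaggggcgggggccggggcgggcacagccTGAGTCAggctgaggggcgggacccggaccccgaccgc
Anxa5 (chr3:36475888-36476137, minus strand): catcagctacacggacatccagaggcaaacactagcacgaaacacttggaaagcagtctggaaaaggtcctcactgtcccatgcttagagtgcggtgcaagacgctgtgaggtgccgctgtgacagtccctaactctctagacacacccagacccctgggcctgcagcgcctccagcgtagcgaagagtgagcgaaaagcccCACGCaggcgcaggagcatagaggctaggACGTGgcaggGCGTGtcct
Lgals3 (chr14:47373610-47373859, plus strand): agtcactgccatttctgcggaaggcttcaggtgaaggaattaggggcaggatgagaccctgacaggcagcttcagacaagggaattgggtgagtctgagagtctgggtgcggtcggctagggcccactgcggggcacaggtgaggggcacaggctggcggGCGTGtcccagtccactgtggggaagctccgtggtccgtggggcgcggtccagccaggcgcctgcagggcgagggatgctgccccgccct
TGANTCA stood once before Anxa2, 95 to 89 bases from the start, and at 136 to 130 and 38 to 32 bases before S100a11. It was in 6.75% of the 32851 promoters of the table. ACGTG was present before Anxa2, S100a11 and Anxa5 and in 16.6% of promoters. In S100a11 it was read on both strands from the same overlapping letters. GCGTG stood before Lgals3, at 90 to 86 bases, and at 48 to 44 and 9 to 5 bases before Anxa5, and was in 28.2% of promoters. A T-box motif, GGTGTGA on either strand, was in 3.33% of promoters and in none of these 7. The promoters of Anxa1, S100a4 and S100a6 held none of these motifs in this window. A match is a run of letters, and binding was not measured.

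The first comparison asked how the level of each gene differed between PHD2-KO and WT cells. Each level is the gene's UMI sum over kept cells in CPM, with exact Poisson intervals at 95%, and folds have exact conditional binomial intervals. Both cover counting error only. A gene was measured if it reached 5 CPM in the higher library and was called higher or lower if the levels differed by 1.5-fold. CPM is not divided by transcript length, so levels of different genes are not compared. Of the 9 genes 8 were measured. Of these 6 were higher in PHD2-KO cells, 0 were lower and 2 lay between. Among all 8537 measured genes 11.7% were called higher and 2.35% lower. The median log2 ratio, with 1 CPM added to each level, was 0.86 for the 8 measured members and 0.16 for all measured genes.

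Both galectins were higher in PHD2-KO cells, and Lgals3 had the highest ratio of the 9 genes. Lgals3, which binds branched sugar chains and can form multimers, was at 99.8 CPM in PHD2-KO cells and 25.0 CPM in WT cells, a 3.99-fold difference (3.86 to 4.11). Lgals1, which acts as a dimer on matrix and integrin glycans, was at 506 CPM in PHD2-KO cells and 243 CPM in WT cells, a 2.08-fold difference (2.06 to 2.10). Their log2 ratios stood at percentiles 99.2 and 97.2 of all measured genes.

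The annexins spread from little difference to more than 3-fold. Anxa5, whose protein binds phosphatidylserine, was at 29.8 CPM in PHD2-KO cells and 9.11 CPM in WT cells, 3.27-fold higher (3.09 to 3.45), at percentile 98.9. Anxa2, the partner of S100a10, was at 77.6 CPM in PHD2-KO cells and 51.3 CPM in WT cells, and its fold of 1.51 (1.47 to 1.55) lay just past the threshold. Anxa1, a ligand of formyl peptide receptors, was at 5.20 CPM in PHD2-KO cells and 4.56 CPM in WT cells. Its fold of 1.14 (1.04 to 1.25) was at percentile 49.5, in the middle of all measured genes.

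Among the S100 genes, S100a10 and S100a11 were higher in PHD2-KO cells. S100a10 was at 1423 CPM in PHD2-KO cells and 706 CPM in WT cells, 2.02-fold higher (2.004 to 2.031). S100a11 was at 366 CPM in PHD2-KO cells and 225 CPM in WT cells, 1.63-fold higher (1.61 to 1.65). S100a6 was at 306 CPM in PHD2-KO cells and 223 CPM in WT cells, and its fold of 1.37 (1.35 to 1.39) did not reach the threshold. S100a4, known to bind non-muscle myosin, was below the 5 CPM limit, with 212 UMIs (1.35 CPM) in PHD2-KO cells and 224 UMIs (1.11 CPM) in WT cells, and its interval (0.999 to 1.47) included 1.

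Scaling by median-of-ratios size factors shifted the libraries against each other by 0.25 on the log2 scale, and the median of all genes was then -0.07. Over all genes it called 487 higher and 549 lower, against 998 higher and 201 lower by CPM. Under that scaling 4 members were higher, at log2 ratios of 1.71 for Lgals3, 1.37 for Anxa5, 0.81 for Lgals1 and 0.77 for S100a10. Anxa2 (0.35), S100a11 (0.45) and S100a6 (0.21) did not reach 1.5-fold, and Anxa1 changed sign to -0.05.

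Shares of cells were read after every cell had been thinned at random to 14000 UMIs, which kept 6283 PHD2-KO and 7742 WT cells. S100a10 was detected in 99.5% of PHD2-KO cells and 97.2% of WT cells. S100a11 was detected in 92.2% of PHD2-KO and 79.5% of WT cells, and Lgals1 in 92.6% of PHD2-KO and 81.8% of WT cells. These 3 genes were thus carried by most cells of both libraries. Lgals3 was detected in 32.3% of PHD2-KO cells (31.1 to 33.4, exact binomial) and 15.7% of WT cells (14.9 to 16.5), and Anxa5 in 29.7% of PHD2-KO cells (28.6 to 30.8) and 10.9% of WT cells (10.2 to 11.6). Anxa2 was detected in 47.4% of PHD2-KO and 32.8% of WT cells, and S100a6 in 59.9% of PHD2-KO and 54.2% of WT cells. Anxa1 was found in 4.00% of PHD2-KO cells (3.52 to 4.51) and 4.21% of WT cells (3.77 to 4.68), and S100a4 in 1.51% and 1.32%. For both of these rare genes the intervals of the libraries overlapped. Without thinning the shares ran higher, for example 39.4% of PHD2-KO cells and 21.9% of WT cells for Lgals3. No cell class in these libraries is known to lack these genes, so the share that free RNA alone would give was not measured.

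The UMIs of some members sat in few cells. In thinned cells S100a6 had a median of 1 UMI in both libraries but a 99th percentile of 39 UMIs in PHD2-KO cells and 30 UMIs in WT cells. The 10% of cells with most S100a6 held 61.0% of its UMIs in PHD2-KO and 63.7% in WT. S100a6 was at 0 in 40.1% of PHD2-KO cells and 45.8% of WT cells, where a Poisson law of the same mean gives 2.12% and 5.99%. Lgals3 was similarly uneven, with 75.7% of its UMIs in the top 10% of PHD2-KO cells and 81.8% in WT. S100a10 was spread most evenly of the 9 genes by this measure, at 24.3% in PHD2-KO and 28.4% in WT.

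The second comparison followed the genes through T states, which were read from the thinned cells as 0, 1 to 4, or 5 or more T UMIs. In PHD2-KO these states held 1147 cells (18.3%), 2707 cells (43.1%) and 2429 cells (38.7%). In WT they held 7250 cells (93.6%), 490 cells (6.33%) and 2 cells. Those 2 cells had a median of 52190 UMIs and are given no level. A cell with 0 T UMIs may still express T below detection at this depth.

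**Figure D1:**
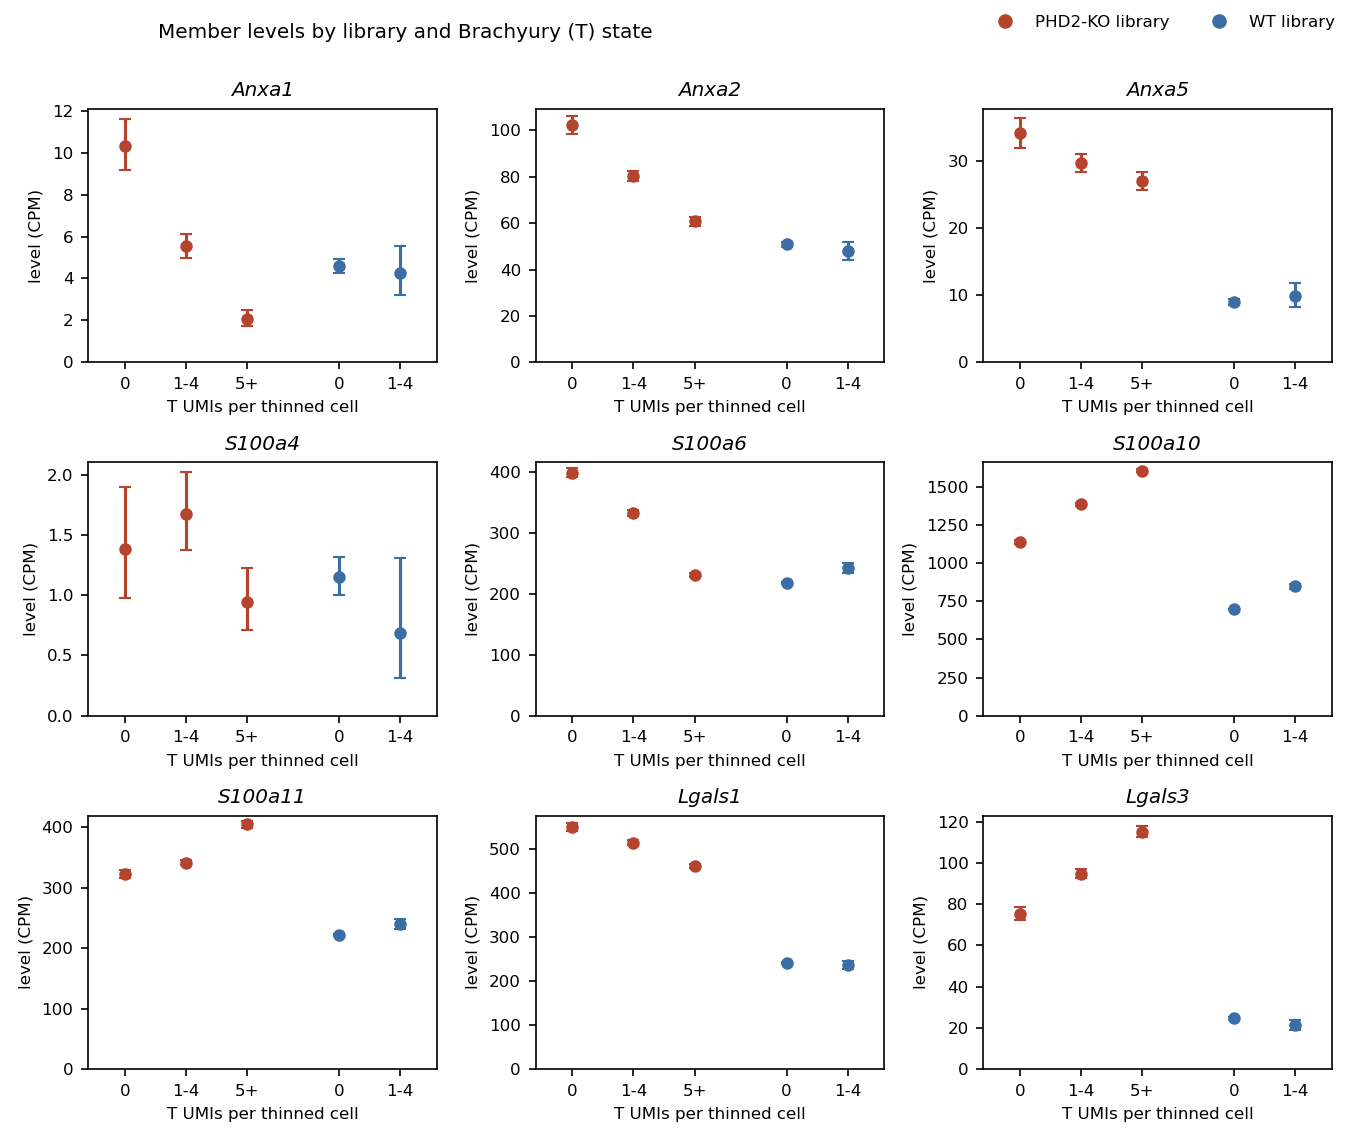
Level of each gene (CPM, a panel per gene with its own axis from 0) by T state in PHD2-KO (T 0, T 1 to 4, T 5 or more) and in WT (T 0, T 1 to 4), as points with exact 95% Poisson intervals for counting error. Anxa1, Anxa2 and S100a6 stepped down with T UMIs in PHD2-KO cells while S100a10, S100a11 and Lgals3 stepped up, and the WT points of Anxa2, Anxa5, S100a10, S100a11, Lgals1 and Lgals3 stayed below every PHD2-KO point.

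Anxa1, Anxa2 and S100a6 were lower in PHD2-KO cells with more T. Anxa1 was at 10.3 CPM in PHD2-KO cells without T UMIs, 5.53 CPM at 1 to 4 UMIs and 2.08 CPM at 5 or more. In WT it was at 4.59 CPM without T and 4.28 CPM at 1 to 4. The near equality of the libraries as wholes thus stood beside PHD2-KO levels on both sides of the WT level. S100a6 was at 399, 332 and 231 CPM over the PHD2-KO states, and at 218 and 242 CPM over the WT states. The PHD2-KO cells with most T and the WT cells with 1 to 4 T UMIs had overlapping intervals for S100a6. Anxa2 was at 102, 80.3 and 60.8 CPM over the PHD2-KO states, and at 50.9 and 48.0 CPM in WT, where the 2 intervals overlapped. In cells without T all 3 genes were at a higher level in PHD2-KO than in WT.

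S100a10, S100a11 and Lgals3 had the opposite order in PHD2-KO cells. S100a10 was at 1137, 1386 and 1606 CPM over the PHD2-KO states, and at 698 and 847 CPM over the WT states, so in both libraries its level was higher in cells with T. S100a11 was at 322, 342 and 405 CPM in PHD2-KO, and at 222 and 239 CPM in WT. Lgals3 was at 75.4, 94.9 and 115 CPM in PHD2-KO, and at 24.7 and 21.4 CPM in WT, where the intervals touched. The share of PHD2-KO cells with an Lgals3 UMI was 28.2% without T, 29.1% at 1 to 4 and 37.8% at 5 or more, and in WT it was 15.8% without T and 13.9% at 1 to 4.

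Anxa5 and Lgals1 differed less between T states than between libraries, as did S100a10, S100a11 and Lgals3. Anxa5 was at 34.1, 29.7 and 27.0 CPM over the PHD2-KO states, and at 8.91 and 9.94 CPM in WT. Lgals1 was at 551, 515 and 462 CPM in PHD2-KO, and at 242 and 237 CPM in WT. For both genes the WT intervals overlapped each other and lay below all 3 PHD2-KO intervals. S100a4 ranged from 0.943 to 1.67 CPM over the PHD2-KO states, on 38 to 109 UMIs, and was at 1.15 and 0.688 CPM in WT, on 208 and 9 UMIs. Its intervals with 1 to 4 T UMIs (1.37 to 2.02) and with 5 or more (0.711 to 1.23) in PHD2-KO did not overlap, and the 2 WT intervals did.

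Counted at 1.5-fold, cells with 5 or more T UMIs against cells without T in PHD2-KO had Lgals3 higher (1.53-fold) and Anxa1 (0.201), Anxa2 (0.594) and S100a6 (0.579) lower, where 3.27% of all measured genes were higher and 3.29% lower. With all T-positive PHD2-KO cells pooled, Anxa1 alone passed (0.377, interval 0.325 to 0.438), where 1.93% of genes were higher and 1.92% lower. In WT 0 of 7 measured members passed in either direction, where 0.433% of genes were higher and 0.210% lower. The ratio of T-positive over T 0 cells was 0.713 in PHD2-KO and 1.17 in WT for S100a6, and 1.39 in PHD2-KO and 0.879 in WT for Lgals3. With 1 library each, these differences between PHD2-KO and WT were not tested. Another random draw of the thinning gave Lgals3 a log2 ratio of 0.31 in PHD2-KO, where the first draw gave 0.47, and of -0.84 in WT, where the first draw gave -0.18. The T state is itself unequal between the libraries, so the pooled ratios of PHD2-KO over WT mix states.

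The libraries were also compared within a T state. A shared state was not an equal level of T. Counted from all UMIs, T in cells without thinned T UMIs was at 25.4 CPM in PHD2-KO and 2.19 CPM in WT. In cells with 1 to 4 T UMIs it was at 170 CPM in PHD2-KO and 54.5 CPM in WT. The folds below are thus not at matched T. Among cells without T UMIs 7 of 8 measured members passed 1.5-fold, where 12.0% of genes were higher and 1.82% lower. Anxa1 was then 2.25-fold higher (1.96 to 2.58), Anxa2 2.01-fold, Anxa5 3.83-fold, S100a6 1.83-fold, S100a10 1.63-fold, Lgals1 2.28-fold and Lgals3 3.06-fold, and S100a11 stood at 1.45-fold. Among cells with 1 to 4 T UMIs 5 of 8 passed, where 8.41% were higher and 2.65% lower. There Lgals3 was 4.43-fold higher (3.93 to 5.01), Anxa5 2.99-fold and Lgals1 2.18-fold, while Anxa1 had a fold of 1.29 with an interval (0.972 to 1.74) that included 1.

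Mesp1, a factor of the first mesoderm to leave the streak, split the cells further. Its UMIs were found in 363 of the 1147 PHD2-KO cells without T and in 45 of the 7250 such WT cells. Among cells with neither T nor Mesp1 (784 PHD2-KO, 7205 WT) 7 members were higher in PHD2-KO, where 12.9% of genes were higher and 1.31% lower, and S100a10 lay just below the threshold at 1.49-fold. Anxa1 was at 12.0 CPM in these PHD2-KO cells and 4.60 CPM in these WT cells, and S100a6 at 449 CPM and 218 CPM. Within PHD2-KO cells without T, those with Mesp1 had less Anxa1 (6.55 against 12.0 CPM), S100a6 (288 against 449 CPM) and Lgals3 (51.1 against 86.4 CPM) than those without it. These 3 members were lower by 1.5-fold and 0 were higher, where 6.14% of genes were lower and 2.96% higher. Among T-positive PHD2-KO cells, 1732 with Mesp1 and 3404 without, 0 of 7 measured members passed, where 1.62% of genes were higher and 2.55% lower. The directions there were lower with Mesp1 for S100a6 (0.679), Anxa2 (0.694) and Lgals3 (0.754), and S100a10 was at 1.07. Anxa1 fell under the 5 CPM limit in this comparison and was not counted. It was at 2.32 CPM (1.88 to 2.83, 96 UMIs) with Mesp1 and 4.69 CPM (4.24 to 5.19, 385 UMIs) without.

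Cells of both libraries also fell into a lower and a higher mode of the share of UMIs from chromosome 8, the chromosome of Egln1. The border between modes was set from the data at 5.89% in PHD2-KO and 6.05% in WT. The low mode held 3083 of 6927 PHD2-KO cells and 1364 of 8515 WT cells, so it moved with the group.

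**Figure D2:**
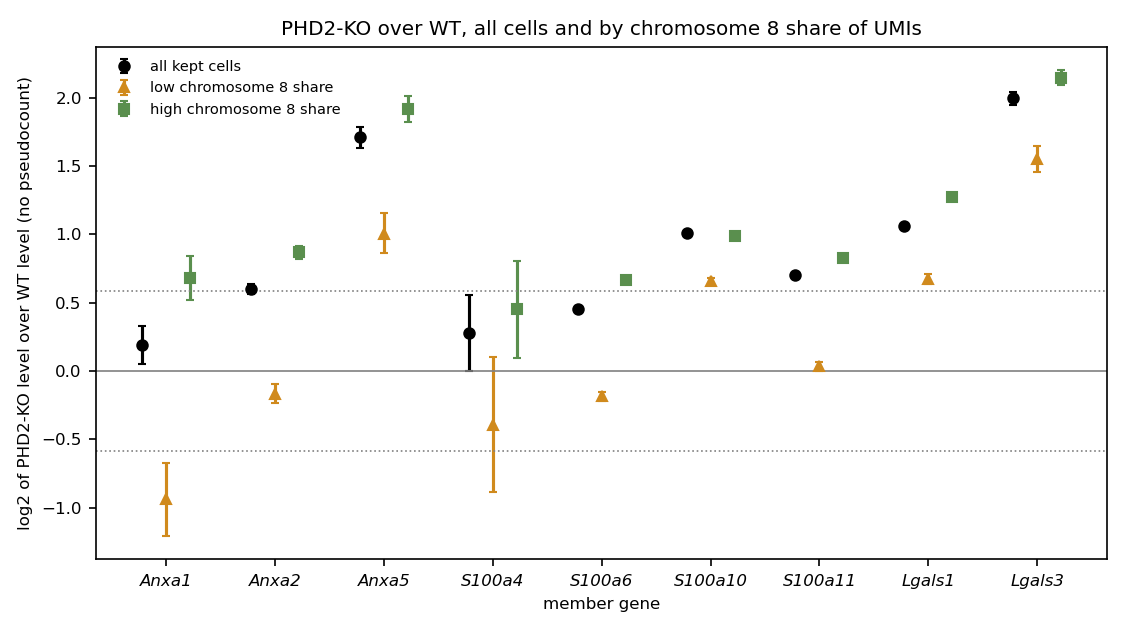
Log2 of the PHD2-KO level over the WT level (y axis, no pseudocount) for each gene (x axis) in all kept cells and in cells of low and of high chromosome 8 share, with 95% intervals for counting error and lines at 1.5-fold. Lgals3, Anxa5, Lgals1 and S100a10 lay past the line in both classes, while Anxa1, Anxa2, S100a4 and S100a6 were below 0 in the low class.

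In cells of high chromosome 8 share all 8 measured members were higher in PHD2-KO, where 11.2% of genes were higher and 1.99% lower. The folds ran from 1.58 for S100a6 to 4.42 for Lgals3. In cells of low share 4 were higher and 1 was lower, where 11.3% of genes were higher and 4.08% lower. Lgals3 was there at 93.9 CPM in PHD2-KO and 32.1 CPM in WT (2.93-fold), Anxa5 at 28.7 and 14.3 CPM (2.01-fold), Lgals1 at 419 and 263 CPM (1.60-fold), and S100a10 at 1587 and 1004 CPM (1.58-fold). Anxa1 was lower in PHD2-KO, at 3.50 CPM against 6.71 CPM in WT. Anxa2 was at 69.8 CPM in PHD2-KO and 78.3 CPM in WT (0.892), S100a6 at 287 and 326 CPM (0.880), and S100a11 at 388 and 379 CPM (1.02). The excess of Anxa2, S100a6 and S100a11 in PHD2-KO was thus measured in cells of high share, and that of Lgals3, Anxa5, Lgals1 and S100a10 in both classes. In cells without T and of low share (453 PHD2-KO, 1135 WT) the folds were 2.39 for Anxa5, 1.82 for Lgals3, 1.64 for Lgals1 and 1.31 for S100a10. Anxa2 (1.03) and S100a6 (1.04) had intervals that included 1. Anxa1 (0.730, interval 0.532 to 0.986) and S100a11 (0.828, 0.797 to 0.861) stood below 1, and S100a4 (0.503) was under the 5 CPM limit. In cells without T and of high share (694 PHD2-KO, 6115 WT) Anxa1 was at 3.32-fold, Anxa2 at 2.54, S100a6 at 2.22 and S100a11 at 1.70. The excess of these 4 genes in PHD2-KO cells without T was thus measured in cells of high share.

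The chromosome 8 class also went with member levels inside each library. Among WT cells, 6 of 8 measured members were higher by 1.5-fold in the low class than in the high class, where 2.30% of genes were higher and 0.952% lower. S100a11 was at 379 CPM in the low class and 195 CPM in the high class (1.94-fold), S100a6 at 326 and 204 CPM (1.60-fold), and S100a10 at 1004 and 649 CPM (1.55-fold), while Lgals1 was at 263 and 240 CPM (1.10-fold). Among PHD2-KO cells 1 member passed, Anxa1, at 3.50 CPM in the low class and 6.64 CPM in the high class, where 2.61% of genes were higher and 2.50% lower. T-positive cells made up 84.0% of the low class and 79.9% of the high class in PHD2-KO, and 10.5% and 5.55% in WT. Mesp1 also went with the class in PHD2-KO, at 340 CPM in the low class and 122 CPM in the high class. Among PHD2-KO cells without T it was at 390 and 74.9 CPM. In those cells Anxa1 was at 5.15 and 13.7 CPM, S100a6 at 336 and 440 CPM and Lgals3 at 60.4 and 85.2 CPM. The Mesp1 comparisons above were not made within a class, so Mesp1 state and chromosome 8 class were not separated there. The part that chromosome 8 dosage has in these levels was not tested. The inside-library comparison was added after the data were seen.

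The third comparison asked which members went together across cells. In each library every pair had Pearson's r above 0 between log-transformed thinned UMIs, 36 of 36 pairs in PHD2-KO cells and 36 of 36 in WT cells. The median over pairs was 0.27 in both libraries. Pairs of other genes of like level were not computed, so this count and this median have no background. All cells of a library share its handling, and thinning made their depth equal, so these are descriptions of 2 libraries.

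**Figure D3:**
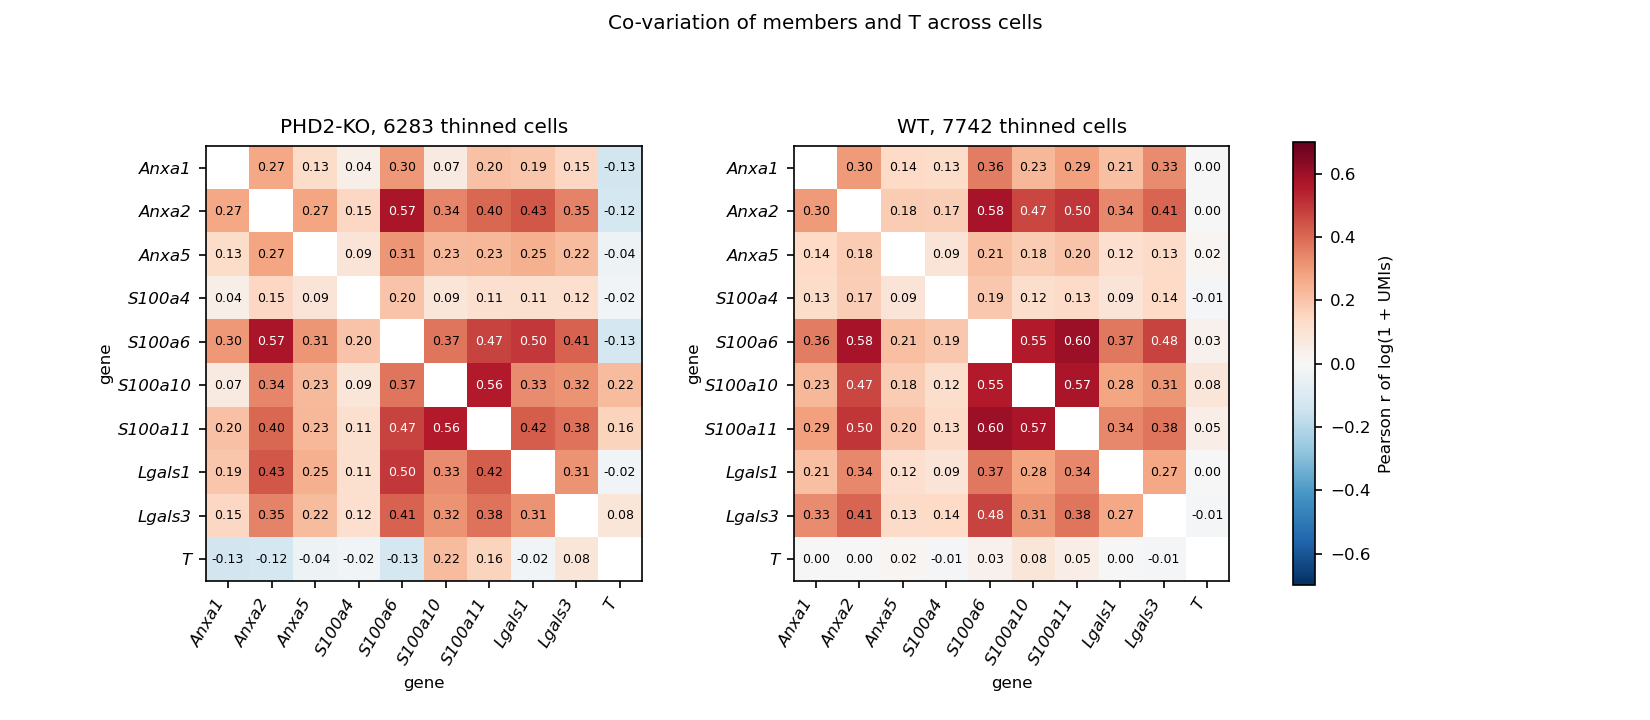
Pearson's r between log(1 + thinned UMIs) of each pair of members and of T across 6283 PHD2-KO cells (left) and 7742 WT cells (right). The pairs of Anxa2 with S100a6 and of S100a10 with S100a11 were among the highest values in both libraries, and the T row stayed between -0.13 and 0.22.

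Anxa2 and S100a6 had r of 0.57 in PHD2-KO and 0.58 in WT, and the neighbours S100a10 and S100a11 had 0.56 in PHD2-KO and 0.57 in WT. S100a6 and S100a11 stood at 0.47 in PHD2-KO and 0.60 in WT, and S100a6 and Lgals1 at 0.50 and 0.37. Anxa2 and S100a10, whose products form one complex, had 0.34 in PHD2-KO and 0.47 in WT. The low values belonged to genes with few UMIs, with S100a4 at 0.20 or below in either whole library. The T gene itself had r of 0.22 with S100a10 in PHD2-KO and 0.08 in WT, and of -0.13 with S100a6 in PHD2-KO and 0.03 in WT. Within PHD2-KO cells the median r over pairs was 0.33 without T UMIs, 0.24 in T-positive cells and 0.23 at 5 or more, and within WT cells it was 0.28 without T and 0.25 in T-positive cells. In T 0 cells 35 of 36 pairs were above 0 in PHD2-KO and 36 in WT, and in cells with 1 to 4 T UMIs 36 were in PHD2-KO and 35 in WT. Cells with more S100a6 were slightly deeper, with r between S100a6 and the log of total UMIs of 0.15 in PHD2-KO and 0.17 in WT even after thinning.

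To show the scale of this co-variation, cells were divided by their thinned S100a6 UMIs into 0, 1 to 4, 5 to 19 and 20 or more, a division made after the data were seen. The classes held 2522, 2428, 1042 and 291 PHD2-KO cells and 3549, 2952, 1041 and 200 WT cells. The top class was 4.63% of PHD2-KO cells and 2.58% of WT cells. The levels of S100a6 itself follow from the division and are not a result.

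**Figure D4:**
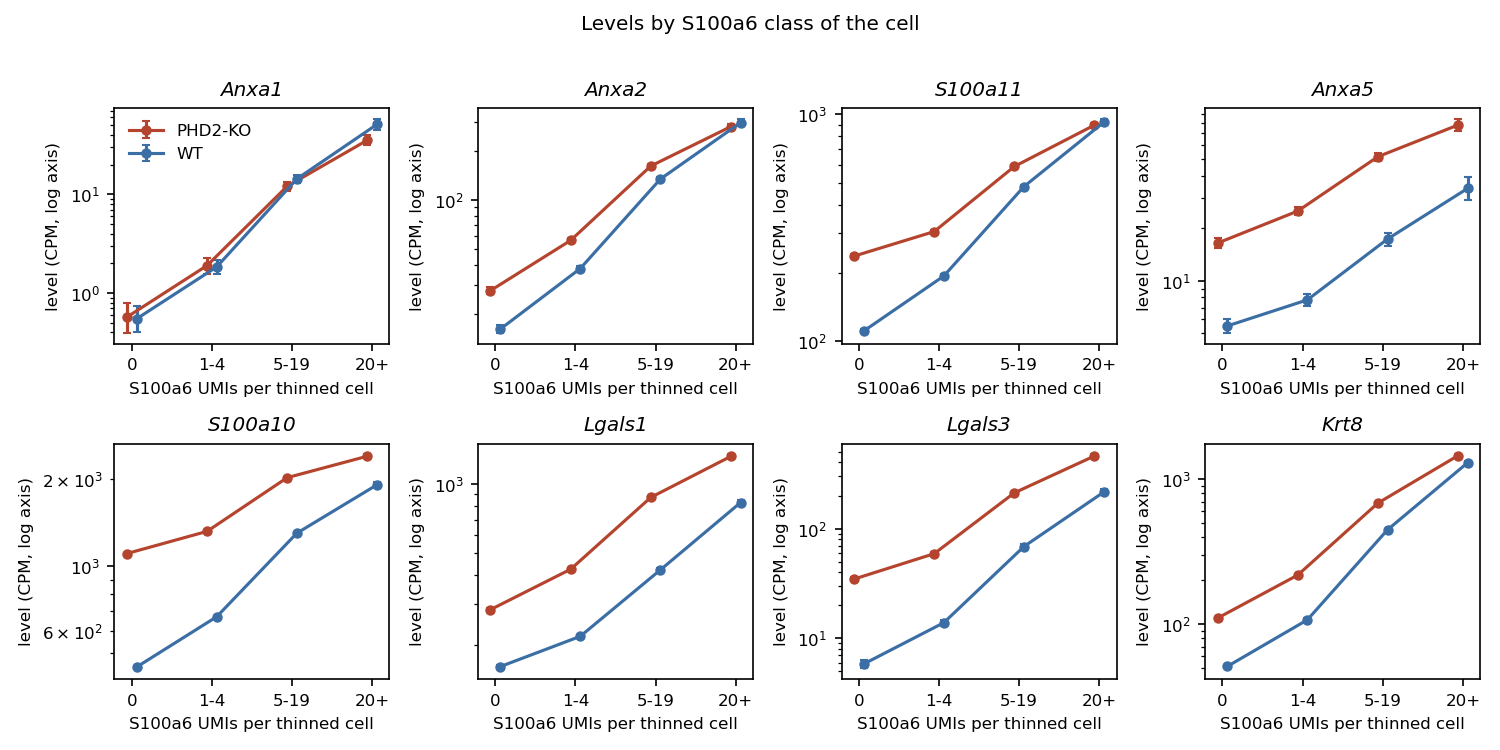
Level (CPM, log axis) of the other members except S100a4, and of Krt8, by S100a6 class of the cell in PHD2-KO and WT, with 95% intervals for counting error. Every gene was highest in the class of 20 or more in both libraries; the Anxa2 and S100a11 lines of the libraries lay close there and Anxa1 was higher in WT, while Anxa5, Lgals1, Lgals3 and S100a10 stayed higher in PHD2-KO.

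Anxa1 had a steep gradient, from 0.572 CPM at 0 S100a6 UMIs to 35.3 CPM at 20 or more in PHD2-KO cells, and from 0.549 to 51.0 CPM in WT cells. Anxa2 ran from 27.7 to 282 CPM over the classes in PHD2-KO and from 16.01 to 298 CPM in WT. S100a11 ran from 237 to 897 CPM in PHD2-KO and from 111 to 925 CPM in WT. In the top class these 3 genes were thus no higher in PHD2-KO than in WT. In the same class Lgals3 was at 459 CPM in PHD2-KO and 216 CPM in WT, Lgals1 at 1319 and 830 CPM, Anxa5 at 78.3 and 33.9 CPM, and S100a10 at 2402 and 1913 CPM. In the class without S100a6, Lgals3 was at 34.6 CPM in PHD2-KO and 5.83 CPM in WT, and S100a10 at 1107 CPM in PHD2-KO and 449 CPM in WT. Those 4 genes therefore differed between the libraries at both ends of the S100a6 range.

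Summed markers of several cell types differed between the S100a6 classes. These sums have no intervals, and those of the highest WT class rest on 200 cells. Summed over their lists, the 6 primitive streak markers went from 782 CPM without S100a6 to 354 CPM at 20 or more in PHD2-KO, and from 73.1 to 31.9 CPM in WT. The 6 nascent mesoderm markers went from 448 to 41.5 CPM in PHD2-KO, with Mesp1 at 334 CPM in the lowest class and 30.5 CPM in the highest. In WT they were at 2.10, 2.33, 1.81 and 4.81 CPM over the classes. The 5 haemato-endothelial markers went from 71.3 to 23.3 CPM in PHD2-KO and from 14.8 to 8.66 CPM in WT. The 10 markers of primitive, visceral and parietal endoderm went the other way, from 105 to 348 CPM in PHD2-KO and from 153 to 468 CPM in WT, with 1 or 2 of them at 0 UMIs in each class. Nearly all of that sum was Sparc, a secreted matrix glycoprotein that other cell types also make, at 345 CPM in PHD2-KO and 461 CPM in WT in the highest class. The 5 surface ectoderm markers went from 17.7 to 60.2 CPM in PHD2-KO and from 3.98 to 33.9 CPM in WT, and most of that sum was Wnt6, at 54.6 CPM in PHD2-KO and 28.3 CPM in WT in the highest class. The 6 trophoblast markers went from 29.4 to 48.4 CPM in PHD2-KO and from 7.74 to 41.2 CPM in WT. Naive pluripotency markers stood at 692 CPM in the lowest class and 694 CPM in the highest in PHD2-KO. In WT they were at 645, 688, 555 and 963 CPM over the classes, without a steady direction. Formative epiblast markers stood at 263 CPM in the lowest and 222 CPM in the highest class in PHD2-KO, and at 704 and 581 CPM in WT. Two-cell-like markers stood at 2.64 and 14.2 CPM in PHD2-KO. In WT they were at 3.93, 8.45, 2.54 and 1.15 CPM over the classes, without a steady direction. Feeder fibroblast markers summed to between 7.42 and 12.6 CPM over the PHD2-KO classes and between 2.22 and 6.35 CPM over the WT classes, and macrophage markers to between 4.61 and 10.3 CPM and between 3.79 and 8.27 CPM. Definitive endoderm markers stayed between 4.19 and 6.85 CPM in PHD2-KO and between 2.62 and 4.62 CPM in WT. No class was named as a cell type, and the part of these cells in the member levels was not tested. Mitochondrial shares had medians between 1.23% and 1.35% over the PHD2-KO classes and between 0.963% and 1.08% over the WT classes.

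Keratin and actin-binding genes were among those most like the members across cells. The pattern was the summed z-score of the 6 members at 20 CPM or more in both libraries (Anxa2, S100a6, S100a10, S100a11, Lgals1 and Lgals3), and likeness was the mean of the 2 libraries' Pearson's r over 3738 other genes at that level. Mitochondrially encoded, ribosomal protein and predicted genes, and genes with only a clone or accession name, were left out beforehand and have no rank here. The median gene had -0.01, and 52 genes reached 0.3. The 10 highest were Krt8 (0.71), Tmsb4x (0.66), Krt19 (0.64), Tmsb10 (0.60), Krt18 (0.60), Sfn (0.59), Tagln2 (0.57), Hspb1 (0.56), Anxa3 (0.55) and Tagln (0.54). Krt8, Krt18 and Krt19 are keratins of simple epithelia, Tmsb4x and Tmsb10 encode actin-sequestering thymosins, and Tagln and Tagln2 encode actin-binding transgelins. The 5 lowest were Npm1 (-0.42), Ptma (-0.38), Hspe1 (-0.37), Set (-0.35) and Dctpp1 (-0.35), among them the nucleolar protein nucleophosmin and the mitochondrial chaperonin Hspe1. Member by member, Krt8 was among the 3 most alike genes of every member.

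**Figure D5:**
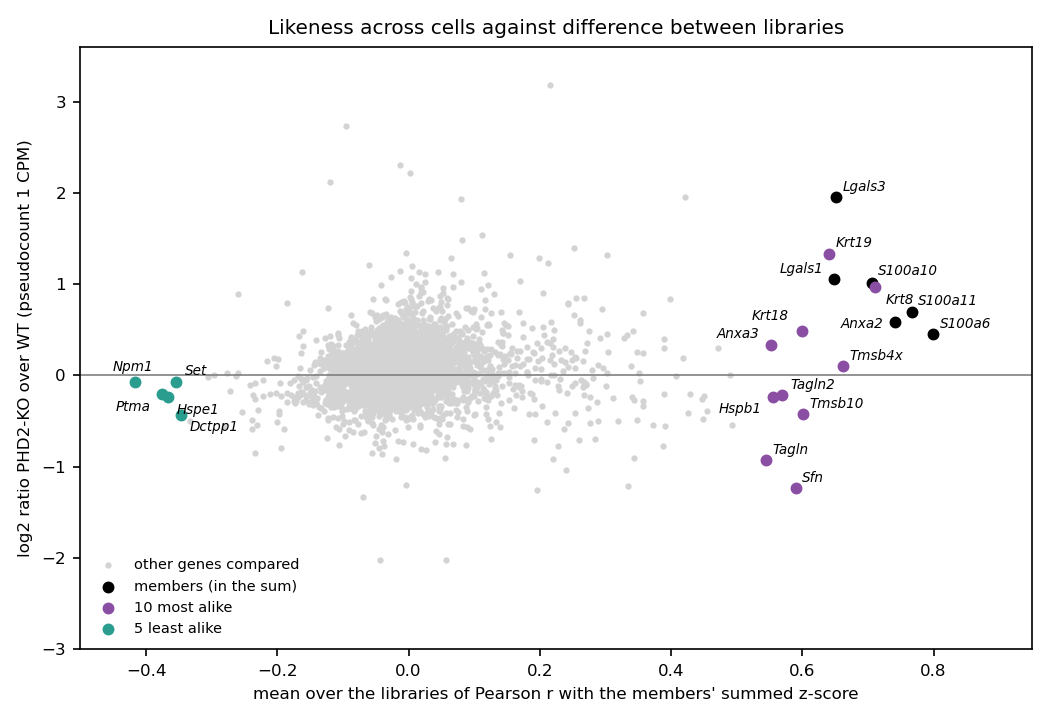
Mean Pearson's r with the members' summed z-score (x axis) against the log2 ratio of PHD2-KO over WT (y axis, pseudocount 1 CPM) for the genes at 20 CPM or more in both libraries. Members are part of the sum. Mitochondrially encoded, ribosomal protein and predicted genes, and genes with only a clone or accession name, are left out. The 10 most alike genes spread from -1.24 for Sfn to 1.34 for Krt19 on the y axis, and all 6 members in the sum were above 0.

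Genes alike across cells did not share one direction between the libraries. Krt19 was at 182 CPM in PHD2-KO and 71.5 CPM in WT, and Krt8 at 337 and 172 CPM. Sfn, the gene of stratifin, was at 230 CPM in PHD2-KO and 544 CPM in WT, and Tagln at 414 and 788 CPM. Tmsb4x lay between, at 775 CPM in PHD2-KO and 721 CPM in WT. Ratio between libraries and likeness across cells were thus separate measures of these genes.

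The other genes of the 3 families were read in the same way. Of 28 other annexin, S100 and galectin genes 9 were measured, of which 1 was higher in PHD2-KO, 2 were lower and 6 lay between, with a median log2 ratio of 0.16 beside 0.16 for all genes. Lgalsl, a galectin-related gene, was higher, at 24.6 CPM in PHD2-KO and 9.93 CPM in WT. Anxa11 was lower, at 9.88 CPM in PHD2-KO and 15.7 CPM in WT, and so was Lgals4, a galectin of gut epithelium, at 2.56 and 5.07 CPM. Anxa3 was at 67.4 CPM in PHD2-KO and 53.2 CPM in WT, Anxa7 at 40.2 and 32.5 CPM, Anxa4 at 23.8 and 21.2 CPM, and Anxa6 at 14.4 and 14.6 CPM. S100a13 was at 15.8 CPM in PHD2-KO and 10.9 CPM in WT, and S100a1 at 20.2 and 23.8 CPM. Taken as families, 2 of 8 measured annexins were higher and 1 lower (median 0.23), 2 of 5 S100 genes were higher and 0 lower (median 0.50), and 3 of 4 galectins were higher and 1 lower (median 1.14). The backgrounds were 11.7% higher and 2.35% lower. Every higher annexin and S100 gene and 2 of the 3 higher galectins were among the 9 genes described above, so these family counts restate how those were chosen.

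The known partners of these proteins and genes of neighbouring processes were read as whole lists. Of 9 measured binding partners and ligands 0 passed 1.5-fold in either direction (median 0.22). Myh9, the myosin heavy chain that S100a4 binds, was at 60.6 CPM in PHD2-KO and 43.7 CPM in WT, the tetraspanin gene Cd63 at 358 and 260 CPM, the integrin gene Itgb1 at 118 and 128 CPM and Cacybp at 424 and 440 CPM. Of 17 measured genes of the actin cytoskeleton and of SRF and YAP targets 0 were higher and 5 lower (median -0.48), with Acta2 at 3.50 CPM in PHD2-KO and 20.1 CPM in WT and Myl9 at 39.9 and 96.8 CPM, while Actb was at 2225 and 2218 CPM. All 3 measured simple keratins had positive log2 ratios and 2 passed 1.5-fold, a count that was 0 in cells of low chromosome 8 share. Of 8 measured genes of the mesenchymal transition list 6 were higher and 0 lower (median 1.95), with the intermediate filament gene Vim at 342 CPM in PHD2-KO and 87.2 CPM in WT and the zinc finger factor Snai1 at 12.2 and 0.630 CPM, while the matrix gene Sparc was at 159 and 209 CPM. Of 9 epithelial genes 2 were higher and 2 lower (median -0.23), with the desmosome gene Dsp at 46.7 CPM in PHD2-KO and 13.1 CPM in WT and the polarity gene Crb3 at 35.03 and 60.7 CPM. Under median-of-ratios scaling 9 genes of the actin list and 4 of the epithelial list were lower, where 549 of all 8537 measured genes were lower.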

How the data were processed

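The authors deposited, for each library, a matrix of whole-number UMI counts per gene and cell barcode, made with Cell Ranger 4.0.0 (per the file headers). Per the submitters' processing notes, mm10 and Seurat were also used. The counts are not normalized. The sources used here do not give sequencing depth, annotation or strand use.

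Cells were kept with at least 1000 genes and at most 10% mitochondrial UMIs. Scrublet (scanpy 1.11.5) called 0 cells at its automatic threshold, so the top scores were removed at 0.8% per 1000 barcodes, 456 PHD2-KO cells (6.18%) and 712 WT cells (7.72%). Missed doublets remain. UMIs were summed per library or state and scaled to CPM. For shares, states and correlations each cell was thinned to 14000 UMIs (seed 1), which left out 644 PHD2-KO and 773 WT cells. The border of the chromosome 8 classes was the lowest density between the modes of each library. Intervals came from scipy 1.17.1 at 95%, and the scripts ran in Python 3.11.15 with numpy 2.4.6 and were tested on simulated data. Cells are not replicates, so no p-value is given. Gene coordinates matched for 27645 of 27998 genes.

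The members, lists and states were chosen with earlier results of these data known. Other genes are named by rule: every measured gene of the 3 families, up to 2 genes from each end of a list plus its most abundant gene, and the genes most and least like the members across cells. Mesp1 and T define states. Alternatives were other limits on cells, no doublet removal, median-of-ratios size factors, a pseudocount of 0.1 CPM, means of per-cell CPM, other thinning and T borders, Spearman's rho and the chromosome 8 classes.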

Additional observations from a re-analysis of the deposited data

Results flagged for a closer look

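For 2 genes the ratio of T-positive over T 0 cells lay on opposite sides of 1 in the libraries. Their intervals for counting error excluded 1 in both libraries, but those intervals leave out spread between cells. Anxa5 also had opposite directions, at 0.834 in PHD2-KO and 1.14 in WT, but its WT interval (0.949 to 1.36) included 1. S100a6 in T-positive over T 0 cells was at 0.713 in PHD2-KO and 1.17 in WT, and with 1 to 4 T UMIs over T 0 it was at 0.833 in PHD2-KO and 1.11 in WT. Lgals3 in T-positive over T 0 cells was at 1.39 in PHD2-KO and 0.879 in WT, and with 1 to 4 T UMIs over T 0 it was at 1.26 in PHD2-KO and 0.867 in WT. Neither difference was tested, since each group is 1 library. The WT values rest on 492 T-positive cells, in which 280 Lgals3 UMIs came from the 490 cells with 1 to 4 T UMIs. Over these 492 cells the variance of thinned UMIs was 15.4 times their mean for S100a6 and 3.28 times for Lgals3. The 2 WT cells with 5 or more T UMIs held 189 of the 3360 S100a6 UMIs of T-positive WT cells.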

How the results depend on the processing

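Of 518 recomputed values 348 moved by less than counting error or stayed within 1.5 times the count, 169 moved further and 1 turned its called direction, Anxa2, at a log2 ratio of -0.16 in cells of low chromosome 8 share. The count of members higher in PHD2-KO ran from 4 to 8, and the count of lower ones was 1 in cells of low chromosome 8 share. The higher count was 4 under median-of-ratios scaling, where 487 of 8537 genes were higher and 549 lower. It was 4 in cells of low share, where 972 of 8623 genes were higher and 352 lower. It was 8 in cells of high share, where 953 of 8478 genes were higher. Among the other family genes the higher count was 2 in cells of low and 3 in cells of high chromosome 8 share, and the lower count was 1 without limits, with stricter limits, without doublet removal and in cells of high share. Over all genes the lower count was 199 of 8539 without limits and 197 of 8538 with stricter limits. It was 197 of 8532 without doublet removal and 169 of 8478 in cells of high share. For T-positive over T 0 cells in PHD2-KO, 2 members were lower with T read without thinning or under another seed and 3 in cells of high chromosome 8 share, and 1 was higher in cells of low share. In WT 2 were higher and 1 lower when T was positive from 2 UMIs (72 cells), and 1 was lower under another seed and in cells of low share. The share of all genes that passed was not recorded for these T alternatives, so their counts have no background. The median r over pairs was 0.20 in PHD2-KO and 0.22 in WT at 8000 UMIs, and 0.24 in each with Spearman's rho. The causes were not tested. All 36 pairs stayed above 0 in both libraries under the alternatives run for co-variation. No paired analysis was possible because each group is 1 library, and no replicate could be left out for the same reason. Depth limits S100a4 and Anxa1 most.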
